A study of Mus musculus with 12 samples.

Results

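Myb, Runx1, Meis1, Hoxa9, Hoxa10, Cd34, Kit, Flt3, Lmo2 and Tal1 are 10 genes that mark or regulate blood stem and progenitor cells. They were found by their symbols among the 24411 genes of a normalised RNA-seq table, and all 10 were listed there. MYB, RUNX1, TAL1 and LMO2 are nuclear factors of early blood cells: TAL1 pairs with E proteins on DNA and is bridged by LMO2 and LDB1 to GATA factors, RUNX1 binds DNA with CBFB, and MYB recruits the coactivators p300 and CBP. MEIS1 acts with HOXA9 and HOXA10, which are high in stem cells and in many acute myeloid leukaemias with MLL fusions. KIT and FLT3 are receptor tyrosine kinases for stem cell factor and FLT3 ligand, and CD34 is a surface sialomucin used to sort progenitors. In normal marrow most of these genes are turned down as myeloid cells mature.

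The cells were leukaemia cells from bone marrow of BALB/c mice in which mutant forms of CSF3R, the receptor of granulocyte colony-stimulating factor, and of the myeloid transcription factor CEBPA were expressed by retroviral transfer, so that every group carried both mutant genes. Cultures in IMDM with 20% FBS were treated for 24 h with 50 nM ruxolitinib and 2 nM GSK-LSD1 together, with 2 nM GSK-LSD1 alone, with 50 nM ruxolitinib alone, or with the solvent DMSO. GSK-LSD1 inhibits the histone demethylase LSD1, which works in corepressor complexes with factors such as GFI1 and GFI1B, and ruxolitinib inhibits the kinases JAK1 and JAK2, which act below CSF3R. Each of the 4 treatments had 3 libraries. The labels do not say whether libraries of a treatment came from separate cultures or how many mice or clones gave the cells, so p-values measure the spread between these libraries, which may be technical.

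Levels are given as normalised read counts, which the authors made by scaling each library, and changes as log2 fold changes of the value plus 1. Once an added constant had been taken off, all values of a library were whole multiples of a step particular to it, and these steps summed to between 8260995 and 8528400 per library. Ruxolitinib replicate 2 and combination replicate 3 stood apart from the rest, at -19.7 and -17.3 on the second principal component. All 9 markers of granulocyte-monocyte progenitors were above a mean of 10 and summed to 22540 to 33940 normalised read counts, with Mpo (myeloperoxidase) at 12310, 7201, 10320 and 6565 normalised read counts in the means of the combination, GSK-LSD1, ruxolitinib and DMSO. Against DMSO, 3 of the 9 rose and 1 fell with the combination, 1 rose and 4 fell with GSK-LSD1, and 4 rose with ruxolitinib. Of all genes tested, 42.3%, 32.5% and 1.63% passed in these comparisons in either direction. Pax5 and Ms4a1 of B cells, Cd4 and Ncr1 of T and NK cells, Cdh5 and Cxcl12 of stroma and endothelium, and the 4 globin genes were at 0 in all 12 libraries. Other markers of these lists were counted. In DMSO, Nkg7 and Klrb1c of T and NK cells averaged 157.5 and 28.82, and Col1a1 and Pecam1 of stroma and endothelium 42.43 and 2992.

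Of the 10 genes, 6 had a mean of at least 10 over the 12 libraries and were tested, while Meis1, Hoxa9, Hoxa10 and Flt3 did not reach it. An F-test of limma found a difference among the 4 treatments for Cd34 (Benjamini-Hochberg adjusted p = 2.86e-15), Lmo2 (5.81e-07), Kit (5.57e-05) and Myb (0.00831), and not for Runx1 (0.452) and Tal1 (0.493). Of all 11484 genes tested, 42.8% passed this F-test. Against DMSO, Cd34 and Kit rose and Lmo2 and Myb fell with the combination, where 42.3% of all genes passed, and the same 4 genes did so with GSK-LSD1, where 32.5% passed. For ruxolitinib alone against DMSO limma called none of the 6 and 1.63% of all genes.

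Divided by the length of each gene's exons, the levels in DMSO spanned several orders of magnitude. Myb was highest, at a mean of 973 normalised read counts per kb, and 2.75% of the 11035 tested genes with a known length stood above it. Lmo2 at 448, Tal1 at 414, Runx1 at 228, Cd34 at 36.1 and Kit at 2.16 per kb followed, and no neighbours in this order overlapped over the 3 DMSO libraries. Kit was thus a low gene in these cells, with 97.7% of tested genes above it per kb. In ruxolitinib the order was the same, with Lmo2 at 458 and Tal1 at 402 per kb, but the ranges of these neighbours overlapped. In both groups with GSK-LSD1 Tal1 stood above Lmo2: the combination had 389 per kb of Tal1 and 317 of Lmo2, and GSK-LSD1 alone had 406 and 314. Cd34 was at 181 per kb in the combination and at 140 in GSK-LSD1, against 42.9 in ruxolitinib and 36.1 in DMSO, and it lay below Runx1 and above Kit in every group. Hoxa9, Meis1, Hoxa10 and Flt3 were below 1 normalised read count per kb in all 4 groups.

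**Figure D1:**
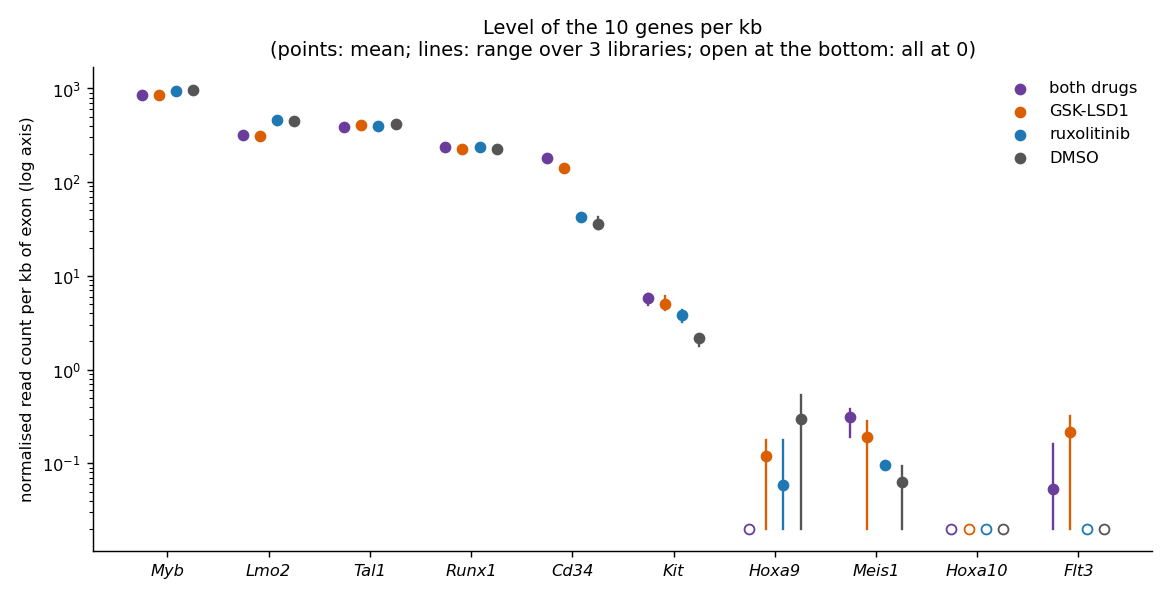
Level of the 10 genes per kb of exon in each treatment, on a log axis; points are means of 3 libraries, lines the range, lines that reach the bottom include a library at 0, and open points at the bottom mark groups at 0 in all libraries. Myb lies at 842 to 973 per kb, Cd34 at 181 and 140 with GSK-LSD1 against 42.9 and 36.1 without it, and 4 genes lie below 1.

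Cd34 (ENSMUSG00000016494.9, GRCm38 chromosome 1, 194938819 to 194961279, plus strand) changed more than any other of the 6 in each comparison of GSK-LSD1 with a group that lacked it. It had 1396, 1344 and 1230 normalised read counts in the combination, and 1012, 985.4 and 1064 in GSK-LSD1. In ruxolitinib it had 326.3, 312.3 and 299.4, and in DMSO 307.9, 228.1 and 254.5. All 6 libraries with GSK-LSD1 lay above all 6 without it. The share of all genes split in this way is not given here. Against DMSO alone, 51.6% of all genes in the combination and 50.9% in GSK-LSD1 had groups without overlap. GSK-LSD1 alone raised Cd34 by 1.96 ± 0.09 (SE) on the log2 scale against DMSO, which is 3.89-fold (limma, adjusted p = 6.45e-13), and the combination raised it by 2.33 ± 0.09, or 5.04-fold (adjusted p = 1.79e-14). These comparisons share the DMSO libraries. Against ruxolitinib, the combination was higher by 2.08 (adjusted p = 1.18e-13) and GSK-LSD1 by 1.70 (adjusted p = 3.49e-12). Among all 11484 genes Cd34 ranked 38 by fold change for the combination and 52 for GSK-LSD1 against DMSO, counted from the highest. In a bulk sample, more cells with Cd34 and more Cd34 RNA per cell cannot be told apart.

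Within the GSK-LSD1 groups, the combination lay above GSK-LSD1 alone in Cd34, with a log2 difference of 0.37 (95% interval 0.19 to 0.55, adjusted p = 0.031). This call held in 17 of 24 alternative settings and was lost without GSK-LSD1 replicate 1 (adjusted p = 0.112), 2 (0.184) or 3 (0.0687) and without combination replicate 1 (0.116) or 2 (0.103), and with no filter on low genes (0.0666) or no variance trend (0.155). Ruxolitinib alone gave Cd34 a log2 value of 0.26 against DMSO, with overlapping groups (adjusted p = 0.132), and passed only without DMSO replicate 1 (0.37, adjusted p = 0.0456). The combination differed from the sum of both single effects by 0.12, with a 95% interval of -0.14 to 0.37.

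The antisense gene Gm16897 shares 148 bases of exon with Cd34, and whether counting used the strand is not given in the sources used here. Gm16897 averaged 150.3 ± 8.6 (SD, n = 3) normalised read counts in the combination and 103.4 ± 7.73 in GSK-LSD1, against 33.06 ± 6.62 in ruxolitinib and 25.51 ± 3.37 in DMSO. It rose by 1.98 ± 0.16 with GSK-LSD1 and by 2.52 with the combination against DMSO (limma, adjusted p = 7.15e-09 and 1.24e-10). Its values were 8.39% to 13.5% of those of Cd34 in the same library, and the log2 values of the pair had a Pearson r of 0.984 over the 12 libraries, which share their treatments and scaling. Reads of Cd34 and Gm16897 in the shared exon cannot be told apart here.

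**Figure D2:**
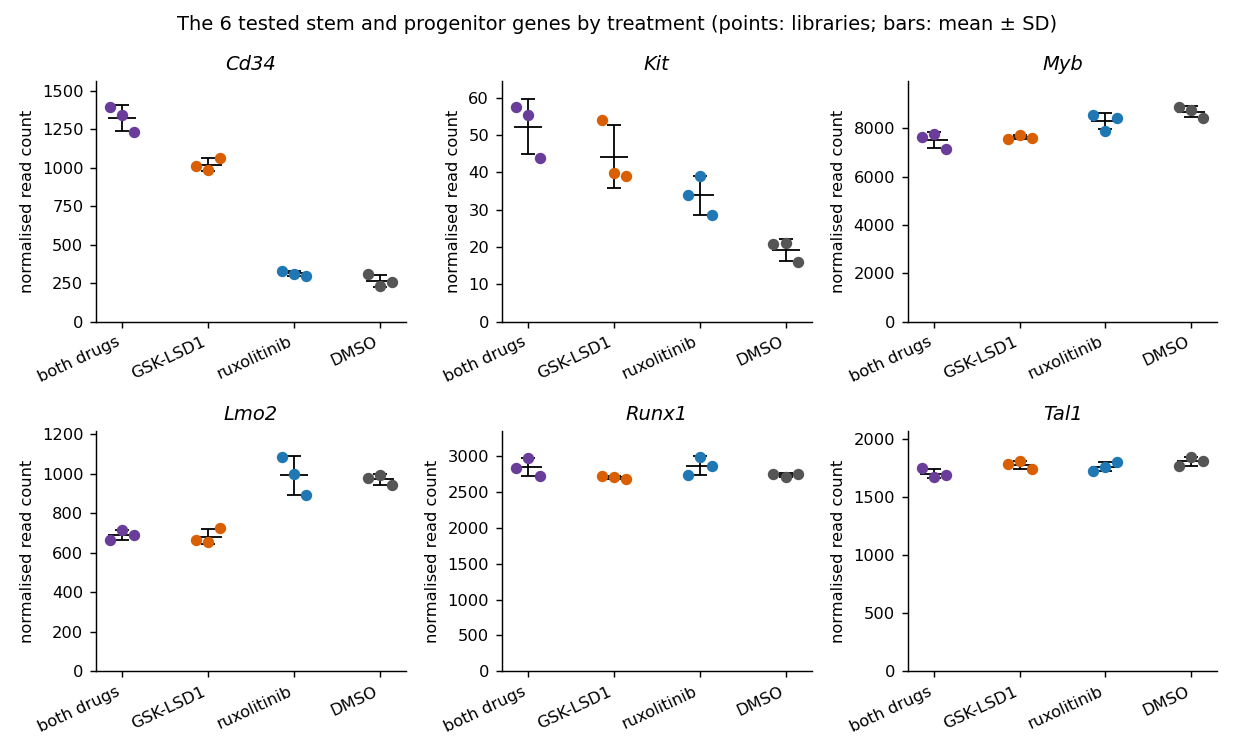
Normalised read counts of the 6 tested genes in every library (points), with the mean and SD (bars), by treatment; each panel starts at 0. Cd34 separates into 6 libraries at 985.4 to 1396 with GSK-LSD1 and 6 at 228.1 to 326.3 without it, Lmo2 shows the opposite order, and Runx1 runs from 2681 to 2994 and Tal1 from 1670 to 1850 over all libraries.

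Kit (ENSMUSG00000005672.12, chromosome 5, 75574916 to 75656722, plus strand) had 57.53, 55.24 and 43.76 normalised read counts in the combination, and 53.95, 39.81 and 38.89 in GSK-LSD1. Ruxolitinib libraries had 33.83, 39.04 and 28.66, and DMSO libraries 20.85, 21.01 and 15.84. All 9 libraries with a drug lay above the 3 DMSO libraries, while ruxolitinib and GSK-LSD1 overlapped. Of all genes, 51.6% in the combination, 50.9% in GSK-LSD1 and 23.7% in ruxolitinib did not overlap with DMSO. Kit rose by 1.39 ± 0.21 with the combination (2.63-fold, limma adjusted p = 1.39e-05) and by 1.16 ± 0.21 with GSK-LSD1 (2.23-fold, adjusted p = 1.98e-04) against DMSO. Against ruxolitinib, the combination was higher by 0.61 (adjusted p = 0.0274). That call was lost in 6 of 23 alternatives. Quantile normalisation gave 0.38 (adjusted p = 0.161) and no filter 0.61 (adjusted p = 0.0643), and the call was also lost without combination replicate 1 (adjusted p = 0.102) or 2 (0.084) and without ruxolitinib replicate 1 (0.058) or 3 (0.102).

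Kit was also the tested gene of the 10 with the highest fold change in ruxolitinib alone. The log2 difference from DMSO was 0.78 (95% interval 0.36 to 1.21, adjusted p = 0.0535), with no overlap between the groups, and it ranked 52 among all 11484 genes, counted from the highest. It passed the test without ruxolitinib replicate 3 (0.89, adjusted p = 0.0435) or combination replicate 3 (adjusted p = 0.0296) and with a correction for GC content (0.80, adjusted p = 0.0378), and it was 0.68 (adjusted p = 0.111) without both libraries that stood apart. The combination against GSK-LSD1 gave 0.24 (adjusted p = 0.683), GSK-LSD1 against ruxolitinib 0.37 (95% interval -0.06 to 0.80, adjusted p = 0.193), and the departure from additivity was -0.54 (95% interval -1.15 to 0.06, unadjusted p = 0.0747). At these low values the intervals of Kit were wider than those of Cd34.

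The windows from 250 bases before to 50 after the start of Cd34 and Kit are shown as the promoters of both genes that rose. They are RefSeq sequences of GRCm38.p6 on the plus strand, chr1:194938571-194938870 for Cd34 and chr5:75574737-75575036 for the first of 2 Kit windows. Capitals mark matches on either strand to any of 8 short motifs.
Cd34: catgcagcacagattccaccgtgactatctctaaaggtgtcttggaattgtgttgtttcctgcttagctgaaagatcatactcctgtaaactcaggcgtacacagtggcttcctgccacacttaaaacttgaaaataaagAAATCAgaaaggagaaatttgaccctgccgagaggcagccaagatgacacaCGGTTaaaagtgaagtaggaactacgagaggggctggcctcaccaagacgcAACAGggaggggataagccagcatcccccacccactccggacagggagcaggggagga
Kit: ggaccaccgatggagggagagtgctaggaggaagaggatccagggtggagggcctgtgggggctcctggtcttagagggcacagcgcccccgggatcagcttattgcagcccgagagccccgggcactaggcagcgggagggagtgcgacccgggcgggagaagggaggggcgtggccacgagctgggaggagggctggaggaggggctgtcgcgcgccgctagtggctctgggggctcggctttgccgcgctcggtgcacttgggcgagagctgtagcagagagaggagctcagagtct
The Cd34 window held AAATCA, a core bound by GFI1 factors, starting 110 bases before the start site on the plus strand, and 2 matches to the MYB motif AACNG, at 8 bases before it on the plus strand and at 59 before it on the minus strand. The Kit window held no match to any motif. Among 32851 windows of this length, 14% held AAATCA and 80.3% AACNG. The other motifs were AGATAA for GATA factors (11.2% of windows), TGTGGT for RUNX (16.8%), GGAAGT for ETS factors (23.8%), TGACAG for MEIS (19.2%), CAGATG for TAL1 with E proteins (17.2%) and TTCNNNGAA for STAT (8.3%). A match describes the letters only, and windows were given for 9 of the 10 genes, without Lmo2.

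Markers of myeloid cell types changed in the same libraries as Cd34 and Kit, not all in their direction. Among the 9 granulocyte-monocyte progenitor markers, the granule genes Elane, Prtn3 and Ctsg fell by 0.82, 0.73 and 0.69 on the log2 scale with GSK-LSD1 against DMSO (limma, adjusted p = 9.59e-05, 1.83e-06 and 1.09e-05) and gave 0.14, 0.04 and 0.06 with the combination, none of which passed. Ms4a3 fell by 0.68 with the combination and by 1.33 with GSK-LSD1, while Ptprc, the pan-leukocyte marker CD45, rose by 0.51 and 0.49. The granule gene Mpo rose by 0.91 with the combination (limma, adjusted p = 2.52e-08) and did not pass with GSK-LSD1 (0.13, adjusted p = 0.233). Spi1 rose by 0.47 with the combination (adjusted p = 7.69e-04) and did not pass with GSK-LSD1 (0.23, adjusted p = 0.0869). Against ruxolitinib, 3 of the 9 rose and 4 fell with the combination, and 1 rose and 5 fell with GSK-LSD1. Of all genes, 31.6% and 25.4% passed in these comparisons in either direction. The summed level of 7 mature neutrophil markers, mostly Mmp8, was 8527 to 9473 normalised read counts in the combination and 5706 to 6700 in GSK-LSD1, against 2335 to 2594 in ruxolitinib and 2377 to 2825 in DMSO. Mmp8, a neutrophil collagenase, rose by 1.95 with the combination and by 1.38 with GSK-LSD1, and Itgam and Cxcr2 rose too. Ngp, a granule protein gene, averaged 108.7 in the combination, 38.56 in GSK-LSD1, 114.1 in ruxolitinib and 51.08 in DMSO, so that it rose with the combination (1.09) and did not pass with GSK-LSD1 (-0.40, adjusted p = 0.134). The 8 monocyte and macrophage markers summed to 2076 to 2351 in the combination and 1941 to 2058 in GSK-LSD1, against 1092 to 1297 in ruxolitinib and 1089 to 1215 in DMSO. Mast cells and basophils also express Kit, and their 8 markers, Cpa3 and Gata2 included, summed to 24850 to 27300 in the combination, 25730 to 27470 in GSK-LSD1, 24930 to 27070 in ruxolitinib and 21620 to 23900 in DMSO. Of these 8 markers 6 rose in both comparisons of GSK-LSD1 groups with DMSO. The other markers, Fcer1a and Ms4a2, gave -0.19 and 0.06 with the combination and -0.11 and -0.10 with GSK-LSD1, and did not pass. Against ruxolitinib, 3 of the 8 rose and 2 fell with the combination, and 3 rose and 3 fell with GSK-LSD1. Fcer1a and Ms4a2 were among those that fell in both. Tpsab1, among the 6, averaged 29.07 in the combination and 32.91 in GSK-LSD1, against 9.417 in ruxolitinib and 5.643 in DMSO. It reached the filter through the groups where it was high, so its call supports nothing here. Of 7 tested monocyte and macrophage markers 5 rose with the combination and 4 with GSK-LSD1. Of all genes, 20.5% rose with the combination and 17.0% with GSK-LSD1 against DMSO. The 7 T and NK cell markers summed to 247.6 to 255.9 in the combination, 227.9 to 267.8 in GSK-LSD1, 212.7 to 233.2 in ruxolitinib and 174 to 205.6 in DMSO. The 6 stromal and endothelial markers, mostly Pecam1, summed to 3823 to 3866 in the combination, 3571 to 3817 in GSK-LSD1, 2916 to 3381 in ruxolitinib and 2988 to 3073 in DMSO, and the 6 B cell markers to 7.935 at most in any library. The part of these cells in the Cd34 and Kit values was not tested.

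Flt3, the receptor of FLT3 ligand, was close to absent from the counts. It had 1, 0 and 0 steps in the combination, 2, 0 and 2 in GSK-LSD1, and 0 in all ruxolitinib and DMSO libraries, so no library passed the limit of 3 steps (2.959 to 3.082 normalised read counts) that a count of 0 allows for counting error. Its ligand gene Flt3l averaged 88.86 ± 8.56 normalised read counts in the combination, 82.44 ± 8.37 in GSK-LSD1, 117.5 ± 11.4 in ruxolitinib and 94.8 ± 6.17 in DMSO (SD, n = 3). It was lower by 0.40 in the combination and by 0.51 in GSK-LSD1 against ruxolitinib (limma, adjusted p = 0.0234 and 0.00641), and no contrast with DMSO passed. Kitl, which encodes stem cell factor, was at 0 in all 12 libraries.

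Of 15 tested genes of KIT and FLT3 signalling, 4 rose and none fell with the combination, and 3 rose and none fell with GSK-LSD1, against DMSO, where 42.3% and 32.5% of all genes passed in either direction. Ptpn6 encodes SHP-1, a phosphatase that dampens KIT signals, and it averaged 1958 ± 69.7 in the combination, 1610 ± 47.5 in GSK-LSD1, 1298 ± 54.3 in ruxolitinib and 1160 ± 20.2 in DMSO. It rose by 0.75 with the combination and by 0.47 with GSK-LSD1 (adjusted p = 1.05e-09 and 1.83e-06), and the combination lay 0.28 above GSK-LSD1 (adjusted p = 0.00794). Fes, a tyrosine kinase of myeloid cells, rose by 0.74 and 0.46 in the same comparisons with DMSO, and by 0.29 with ruxolitinib alone (adjusted p = 0.0157). Sh2b3, an adaptor that restrains KIT and JAK2, averaged 1045 ± 34.7 in the combination and 989.9 ± 41.4 in GSK-LSD1, against 878.2 ± 54.3 in ruxolitinib and 808.9 ± 20.2 in DMSO, and passed in both comparisons with DMSO. Lyn, a SRC family kinase, passed in the combination (0.32, adjusted p = 0.00165). The list's median was 0.03 for the combination and 0.04 for GSK-LSD1, beside -0.010 and -0.0049 over all genes.

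Lmo2 (ENSMUSG00000032698.15, chromosome 2, 103957986 to 103981878, plus strand) was the member with the largest fall. It had 662.5, 713.2 and 687.2 normalised read counts in the combination and 663.4, 651.9 and 723 in GSK-LSD1. Ruxolitinib libraries had 1086, 999.7 and 889.4, and DMSO libraries 977.2, 993.3 and 941.7. The 6 libraries with GSK-LSD1 all lay below the 6 without it, and the highest of the first set was 723 and the lowest of the second 889.4. How many of all genes split in this way is not given here. Groups without overlap against DMSO were seen for 51.6% in the combination and 50.9% in GSK-LSD1. Against DMSO, Lmo2 was at 0.709-fold with the combination (-0.50 ± 0.07, limma adjusted p = 1.11e-05) and at 0.7-fold with GSK-LSD1 (-0.52 ± 0.07, adjusted p = 1.30e-05). Against ruxolitinib it was lower by 0.52 in the combination and by 0.54 in GSK-LSD1 on the log2 scale (adjusted p = 9.58e-06 and 8.30e-06). All 4 calls held in 24 of 24 alternative settings. Ruxolitinib alone gave 0.03 against DMSO (95% interval -0.12 to 0.18) and the combination 0.02 against GSK-LSD1 (95% interval -0.13 to 0.17).

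Tal1 (chromosome 4, 115056426 to 115071755, plus strand), whose protein binds LMO2, had 1748, 1670 and 1687 normalised read counts in the combination and 1789, 1807 and 1741 in GSK-LSD1. Ruxolitinib libraries had 1721, 1763 and 1802, and DMSO libraries 1772, 1850 and 1810. The combination lay below DMSO without overlap, beside 51.6% of all genes without overlap in either direction. The log2 difference of -0.09 (95% interval -0.20 to 0.02) did not pass (limma, adjusted p = 0.181). With a correction for GC content, which is 55.6% in Tal1 exons, this became -0.23 (adjusted p = 8.00e-04). That correction moved the median over all 11484 genes from -0.010 to -0.072, and the genes called lower from 2503 to 3621. Without the correction, GSK-LSD1 gave -0.03 (95% interval -0.14 to 0.08) and ruxolitinib -0.04 (95% interval -0.15 to 0.07) against DMSO.

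Among 13 tested partners of TAL1 and LMO2 and factors that bind blood stem cell enhancers with them, Erg, Gata2 and Cbfa2t3 rose with the combination and with GSK-LSD1 and none fell. Of all genes, 42.3% passed with the combination and 32.5% with GSK-LSD1 against DMSO in either direction. Erg, an ETS factor of stem cells, averaged 1044 ± 23.2 in the combination and 1015 ± 15.3 in GSK-LSD1, against 797 ± 94.5 in ruxolitinib and 795.1 ± 62.6 in DMSO. It rose by 0.40 with the combination and by 0.35 with GSK-LSD1 against DMSO (limma, adjusted p = 2.66e-04 and 0.00119). Gata2, a GATA factor of stem and mast cells, rose by 0.24 and 0.22, and the corepressor gene Cbfa2t3 by 0.24 and 0.25, in the same comparisons. Gata1 and Lyl1 passed against ruxolitinib, not against DMSO. Gata1, the erythroid GATA factor, was lower by 0.27 in the combination and by 0.35 in GSK-LSD1 (adjusted p = 0.00872 and 0.00146), and Lyl1, the TAL1 relative, by 0.23 and 0.28 (adjusted p = 0.0351 and 0.0135). In Lyl1 the combination overlapped ruxolitinib, with combination replicate 3 at 2325 and ruxolitinib libraries at 2212, 2509 and 2174. Of all genes, 31.6% and 25.4% passed in these comparisons in either direction. Ldb1, the bridge of the complex, did not pass in any comparison, with 0.18 in the combination against DMSO (adjusted p = 0.0577). The list's median was 0.05 for the combination and 0.04 for GSK-LSD1 against DMSO.

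The TAL1 and LMO2 complex is also used by erythroid cells, and erythroid genes moved in the direction of Lmo2. Their 9 markers summed to 209.1 to 353 normalised read counts in the combination and 199.1 to 238.8 in GSK-LSD1, against 469.6 to 565.2 in ruxolitinib and 421.1 to 493.6 in DMSO, with all 4 globin genes at 0. Of the 5 tested, 4 fell with the combination and 3 with GSK-LSD1 against DMSO, beside 21.8% and 15.5% of all genes. Car2, carbonic anhydrase 2, fell by 1.15 with the combination and by 1.25 with GSK-LSD1 against DMSO (limma, adjusted p = 1.21e-06 and 7.82e-07), and Klf1, an erythroid factor, by 0.51 and 0.72. Megakaryocyte markers, mostly Itga2b, summed to 1993 to 2198 in the combination, 1887 to 2118 in GSK-LSD1, 2131 to 2405 in ruxolitinib and 2003 to 2116 in DMSO. The part of these cells in the Lmo2 values was not tested.

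Runx1 (chromosome 16, 92601466 to 92826149, minus strand) showed no difference that passed. It had 2834, 2977 and 2723 normalised read counts in the combination, 2719, 2707 and 2681 in GSK-LSD1, 2733, 2994 and 2867 in ruxolitinib, and 2752, 2703 and 2756 in DMSO. The 3 GSK-LSD1 libraries lay below those of the combination and of ruxolitinib, and the share of all genes that did so is not given here. Against DMSO the log2 differences were 0.05 (95% interval -0.06 to 0.17) in the combination, -0.02 (-0.13 to 0.09) in GSK-LSD1 and 0.06 (-0.05 to 0.18) in ruxolitinib. With the GC correction, GSK-LSD1 against ruxolitinib gave -0.15 (limma, adjusted p = 0.0158) in place of -0.08 (adjusted p = 0.274). Over all genes, the correction moved the median of this comparison from -0.007 to -0.060 and the genes called lower from 1353 to 2576. Cbfb, which encodes the binding partner of RUNX1, averaged 2384 ± 206 in the combination, 2481 ± 25.6 in GSK-LSD1, 2272 ± 132 in ruxolitinib and 2613 ± 99.5 in DMSO (SD, n = 3). It did not pass without the correction either.

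Of 9 tested corepressors and relatives of RUNX1, 3 rose and 1 fell with the combination, and 4 rose and 1 fell with GSK-LSD1, against DMSO, beside the same 42.3% and 32.5% of all genes. Tle1 and Tle4 are corepressors of the Groucho family, and they moved in opposite directions. Tle1 averaged 532.9 ± 75.4 in the combination and 589 ± 13 in GSK-LSD1, against 698.4 ± 11.6 in ruxolitinib and 783.9 ± 25.8 in DMSO, and it fell by 0.56 and by 0.41 against DMSO (limma, adjusted p = 7.49e-06 and 4.30e-04). Tle4 averaged 187.3 ± 15.3 in the combination and 166.2 ± 5.53 in GSK-LSD1, against 109.4 ± 3.79 in ruxolitinib and 123.3 ± 21.8 in DMSO, and it rose by 0.61 and 0.44 against DMSO (adjusted p = 3.27e-04 and 0.00732). Tle3, of the same family, rose by 0.29 and 0.23. Runx3, a RUNX1 relative, rose by 0.21 in both comparisons, and Runx2 rose by 0.50 with GSK-LSD1 (adjusted p = 0.0175) and gave 0.30 with the combination (adjusted p = 0.12). The list's median was 0.07 and 0.06.

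Myb (ENSMUSG00000019982.15, chromosome 10, 21124935 to 21160984, minus strand) had 7640, 7757 and 7156 normalised read counts in the combination and 7554, 7720 and 7619 in GSK-LSD1. Ruxolitinib libraries had 8541, 7910 and 8410, and DMSO libraries 8893, 8770 and 8423. All 6 libraries with GSK-LSD1 were below all 6 without it, by a small margin. The share of all genes with such a split is not given here, while 51.6% in the combination and 50.9% in GSK-LSD1 did not overlap with DMSO. Myb fell by 0.21 ± 0.05 on the log2 scale with the combination (limma, adjusted p = 0.00366) and by 0.19 ± 0.05 with GSK-LSD1 (adjusted p = 0.0112) against DMSO, which left 0.864 and 0.878 of the DMSO level. The fall with GSK-LSD1 did not pass without DMSO replicate 1 (adjusted p = 0.0553). Against ruxolitinib the combination gave -0.14 (adjusted p = 0.0529) and GSK-LSD1 -0.12 (adjusted p = 0.115). Without both libraries that stood apart, these became -0.14 (adjusted p = 0.0243) and -0.15 (adjusted p = 0.0086), and with the GC correction both were -0.19 (adjusted p = 9.40e-04 and 0.00115). With that correction 3105 and 2576 of all genes were called lower in these comparisons, against 1793 and 1353 without it. Ruxolitinib alone gave -0.07 against DMSO (95% interval -0.18 to 0.04).

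The start of Myb is shown as the promoter of the most abundant of the 10 genes. It is chr10:21160935-21161234 of GRCm38.p6, from RefSeq, read 5′ to 3′ on the minus strand, from 250 bases before the start site to 50 after it.
Myb: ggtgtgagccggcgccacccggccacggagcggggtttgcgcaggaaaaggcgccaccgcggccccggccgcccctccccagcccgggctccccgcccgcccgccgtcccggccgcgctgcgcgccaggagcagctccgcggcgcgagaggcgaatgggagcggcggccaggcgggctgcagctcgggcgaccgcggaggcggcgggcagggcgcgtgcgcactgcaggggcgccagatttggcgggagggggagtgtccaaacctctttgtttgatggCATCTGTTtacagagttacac
The capitals mark the E-box CAGATG, read on the opposite strand from 29 bases after the start, and the MYB motif AACNG, on that strand too from 32 bases after it, which overlap. The other 6 motifs searched in Cd34 and Kit had no match there. In GENCODE vM21, Myb shares 559 bases of exon with the antisense gene Gm26577, and Runx1 shares 106 with Gm26626, from which reads cannot be told apart without strand.

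Among 9 tested relatives, coactivators and known targets of MYB, 3 rose and 4 fell in each comparison with DMSO. Ccnb1, Myc and Mybl2 fell in both, Bcl2 with the combination only and Taf12 with GSK-LSD1 only. Of all genes, 42.3% passed with the combination and 32.5% with GSK-LSD1 in either direction. Sox4, a factor of progenitors and leukaemia, averaged 2159 ± 109 in the combination and 1982 ± 49.7 in GSK-LSD1, against 1265 ± 105 in ruxolitinib and 1035 ± 68.9 in DMSO. It rose by 1.06 with the combination, by 0.94 with GSK-LSD1 and by 0.29 with ruxolitinib (limma, adjusted p = 1.03e-10, 7.99e-10 and 0.0323). The coactivator genes Ep300 and Crebbp, for p300 and CBP, also rose. Myc averaged 4451 ± 407 in the combination and 4332 ± 141 in GSK-LSD1, against 5652 ± 587 in ruxolitinib and 5527 ± 123 in DMSO. It fell by 0.32 and by 0.35 against DMSO (adjusted p = 0.00106 and 6.34e-04), and Mybl2, a MYB relative of dividing cells, fell by 0.60 and 0.40. The list's median was -0.19 for the combination and -0.09 for GSK-LSD1.

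**Figure D3:**
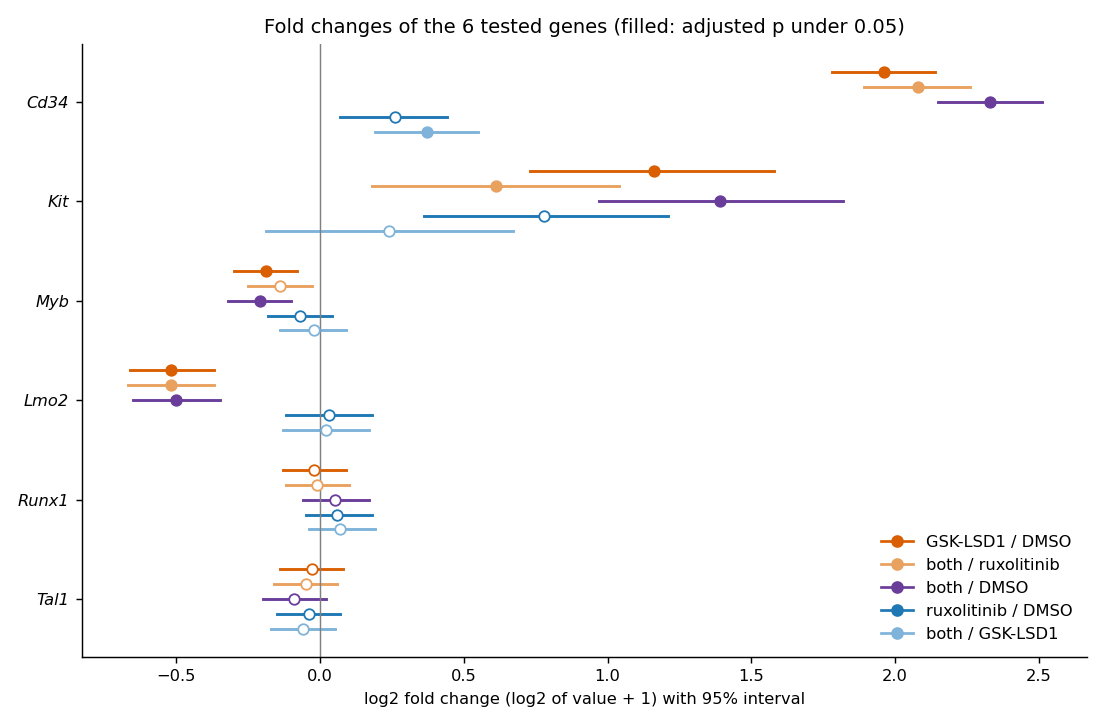
Log2 fold changes with 95% intervals of the 6 tested genes in 5 comparisons; filled points have an adjusted p under 0.05 (limma). Cd34 lies at 1.96 to 2.33 in the 3 comparisons that add GSK-LSD1, Kit at 0.61 to 1.39, Lmo2 near -0.5 and Myb at -0.14 to -0.21, while ruxolitinib against DMSO has no filled point.

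Meis1, Hoxa9 and Hoxa10 were at the edge of detection. Meis1, on chromosome 11, had 4, 4 and 2 steps in the combination, 0, 3 and 3 in GSK-LSD1, 1, 1 and 1 in ruxolitinib, and 1, 0 and 1 in DMSO. Only combination replicates 1 and 2 passed the limit of 3 steps, and Meis1 was left out of the test for its low mean. Fitted with no filter, it gave 1.40 ± 0.49 for the combination against DMSO (limma, adjusted p = 0.0399), and no other comparison of Meis1, Hoxa9 or Flt3 passed. Hoxa9 had 0, 0 and 0 steps in the combination, 0, 1 and 1 in GSK-LSD1, 0, 0 and 1 in ruxolitinib and 0, 3 and 2 in DMSO. Hoxa10, its neighbour on chromosome 6, was at 0 in all 12 libraries, as were Hoxa6 and Hoxa11. Hoxa9 shares 85 bases of exon with the microRNA gene Mir196b, which was at 0 too. At this depth these values rest on a few steps at most.

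The cofactor genes around them were expressed. Of 18 genes of the HOXA cluster, MEIS and PBX partners and MLL-menin regulators 9 were tested. Of these, 2 rose and 2 fell with the combination and 3 rose with GSK-LSD1 against DMSO, beside 42.3% and 32.5% of all genes in either direction. Mllt3, a cofactor of MLL target transcription, averaged 87.51 ± 7.95 in the combination and 85.77 ± 13.8 in GSK-LSD1, against 42 ± 9.68 in ruxolitinib and 53.05 ± 5.19 in DMSO, and it rose by 0.71 and 0.68 against DMSO (limma, adjusted p = 0.00254 and 0.0054). Pbx2, a PBX partner of MEIS proteins, rose by 0.27 and 0.20, and Kmt2a, which encodes MLL itself, by 0.28 in GSK-LSD1. Dot1l, a histone methyltransferase, and Psip1, a chromatin tether of MLL, fell by 0.18 and by 0.23 with the combination. Pbx3 averaged 84.57 ± 7.59 in the combination, 85.43 ± 6.57 in GSK-LSD1, 76.58 ± 5.36 in ruxolitinib and 98.48 ± 8.15 in DMSO, with no comparison past the test. The list's median was -0.10 for the combination and -0.06 for GSK-LSD1.

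Of the 6 tested genes, 4 passed with the combination and 4 with GSK-LSD1 against DMSO, 2 higher and 2 lower each. Of all genes 20.5% were higher and 21.8% lower with the combination, and 17.0% higher and 15.5% lower with GSK-LSD1. Against ruxolitinib, 3 passed with the combination (31.6% of all genes) and 2 with GSK-LSD1 (25.4% of all genes). Cd34 alone passed between the combination and GSK-LSD1, where 1.40% of all genes did. For ruxolitinib against DMSO limma called none of the 6 and 1.63% of all genes, and at an unadjusted p under 0.05 Cd34 and Kit of the 6 and 17.5% of all genes. None of the 6 passed the test of departure from additivity at an adjusted or an unadjusted p under 0.05 (0.00871% and 4.65% of all genes). The median log2 change of the 6 was -0.02 with the combination and -0.02 with GSK-LSD1, against -0.010 and -0.0049 over all genes. Of the 6 tested, groups did not overlap for 5 in the combination and for 4 in GSK-LSD1 against DMSO, beside 51.6% and 50.9% of all genes. In ruxolitinib against DMSO only Kit of the 6 had groups without overlap, beside 23.7%. Untested Meis1 did not overlap between the combination and DMSO either, at 4 steps at most. Without both libraries that stood apart, Cd34, Kit, Lmo2 and Myb passed with the combination and with GSK-LSD1 against DMSO, and none of the 10 with ruxolitinib. Of 11492 genes in that fit, 5253 passed with the combination, 4879 with GSK-LSD1 and 317 with ruxolitinib against DMSO.

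Of 21 tested further genes of stem and progenitor cells, 7 rose and 4 fell with the combination and likewise with GSK-LSD1 against DMSO. Both counts of 7 include Cd27, whose call is set aside below. Apart from Cd27, Nfe2, Satb1, Hhex, Cd93, Procr and Etv6 rose with the combination. With GSK-LSD1 these were Satb1, Hhex, Cd93, Procr, Mecom and Etv6. Of all genes, 20.5% rose and 21.8% fell with the combination, and 17.0% rose and 15.5% fell with GSK-LSD1. Procr, the endothelial protein C receptor used to isolate stem cells, averaged 170.4 ± 13 in the combination and 153.2 ± 11.3 in GSK-LSD1, against 39.24 ± 11.8 in ruxolitinib and 33.47 ± 6.54 in DMSO, and it rose by 2.33 and 2.18 against DMSO (limma, adjusted p = 2.39e-09 and 1.07e-08). Cd93, a surface receptor of early progenitors and myeloid cells, rose by 1.21 and 1.06 (adjusted p = 6.98e-06 and 5.88e-05). Cd27, a TNF receptor family member, averaged 27.43 in the combination, 15.96 in GSK-LSD1, 10.07 in ruxolitinib and 3.652 in DMSO. It reached the filter through the groups where it was high, with DMSO libraries at 0.9931 to 6.002 close to the limit of 3 steps, so its call supports nothing here. Mycn, a MYC relative, fell by 0.83 and 0.48, and it was lower in the combination than in GSK-LSD1 (-0.35, adjusted p = 0.0135). Angpt1, an angiopoietin of the stem cell niche, fell by 0.66 and 0.65, and Slamf1, the SLAM marker CD150, by 0.81 and 0.42. The list's median, Cd27 included, was 0.08 for the combination and 0.15 for GSK-LSD1.

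**Figure D4:**
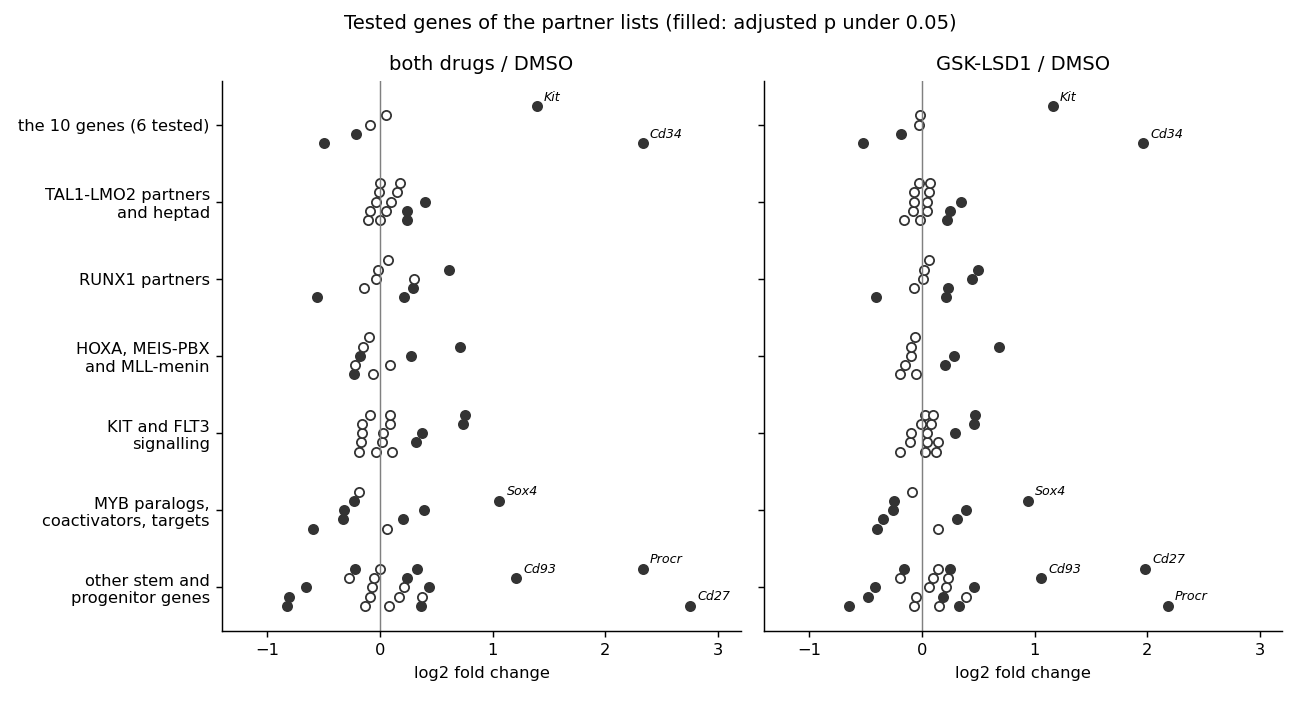
Log2 fold changes of the 6 tested genes and of the tested genes of 6 lists, for both drugs (left) and GSK-LSD1 (right) against DMSO; filled points have an adjusted p under 0.05 (limma), vertical spread within a row only separates points, and passing genes beyond 0.85 are named. The RUNX1 partners, the MYB list and the other stem and progenitor genes hold filled points on both sides of 0 in both panels, and Procr at 2.33 and 2.18 lies near Cd34. Cd27, at 2.75 and 1.98, reached the filter through its own high groups.

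Genes whose log2 values followed a member most closely over the 12 libraries were taken as a description, since the libraries share their treatments. Kctd14 (Pearson r 0.993), Gm2a (0.992) and Gfi1b (0.991) were closest to Cd34. Gfi1b, a DNA-binding repressor of early blood cells, had means of 4789 normalised read counts in the combination and 4040 in GSK-LSD1, against 968.4 in ruxolitinib and 770 in DMSO. Kit was closest to Oplah (0.977), Pdk2 (0.976), a kinase of the pyruvate dehydrogenase complex, and Il15 (0.949), a cytokine gene with means of 40.96 in the combination, 31.25 in GSK-LSD1, 19.14 in ruxolitinib and 11.94 in DMSO. Lmo2 was closest to Ehd4 (0.982), Cdc45 (0.969), a replication factor, and Nmnat2 (0.967), and Myb to Tapt1 (0.983), Hiatl1 (0.978) and Rad1 (0.976), a DNA damage checkpoint gene.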

How the data were processed

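RNA-seq was read from a deposited table of 24411 genes and 12 libraries. Its values are a normalised signal, which the authors made by dividing gene read counts by a factor for each library and adding 1e-05, as the table's values show. STAR, DESeq2, mm10 and GRCm38 are named without versions in the submitters' processing notes. The counting program, annotation and strandedness are not given in the sources used here. The constant was taken off, and each library's values were whole multiples of a step within a tolerance of 0.01. These steps may be reads, but the deposited table is scaled and carries a constant, so it was treated as a signal and no count test was run.

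Genes with a mean of at least 10 were fitted with limma 3.58.1 (R 4.3.3) on log2 of the value plus 1, with 1 mean per treatment, a variance trend and 8 residual degrees of freedom. Benjamini-Hochberg adjustment covered all 11484 genes of a comparison, with a threshold of 0.05, and the procedure was tested on simulated data. Intervals and limits of 3 steps cover counting error or library spread only. Positions and exon lengths are from GENCODE vM21 (GRCm38). Alternative settings were pseudocounts of 0.25 and 5, a filter at 50 or none, TMM or quantile scaling, robust or untrended variance, a replicate block, a GC correction, only the groups compared, and libraries left out.

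The 10 genes, the 6 lists and the marker lists were chosen with earlier results of these data known. Named were all 10 genes, the 3 tested genes of each list with the smallest F-test p-value, direct partners (Cbfb, Ldb1, Lyl1, Gata2, Pbx3, Kitl, Flt3l) and the 3 genes closest to each member past the F-test. Other list genes past the test were named after their values were seen.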

Additional observations from a re-analysis of the deposited data

How the results depend on the processing

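Of 190 counts of the 10 genes under alternatives, 178 kept within 1.5 times the reported count, and of 995 single values 941 kept direction and side of the threshold. The count for ruxolitinib against DMSO was 1 with the GC correction and 0 to 1 with a library left out (Cd34 without DMSO replicate 1, and Kit without ruxolitinib replicate 3 or combination replicate 3). Over all genes, 251 passed with the GC correction and 58, 242 and 552 without these libraries, against 187 in the reported fit. The count for the combination against GSK-LSD1 was 0 with no filter and with no variance trend, and 0 to 1 with a library left out. Over all genes, 122, 93 and 83 to 226 passed in these settings, against 161 in the reported fit. The count for GSK-LSD1 against ruxolitinib was 4 with the GC correction, where 4056 of 11484 genes passed, against 2920 in the reported fit. The cause was not tested. Across genes, Spearman's rho of log2 changes with GC content was 0.420 for ruxolitinib, 0.110 for GSK-LSD1 and 0.209 for the combination against DMSO, 0.008 for the combination and -0.143 for GSK-LSD1 against ruxolitinib, and 0.271 for the combination against GSK-LSD1.

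Signs turned only in values that passed in none of the settings run. With the GC correction, Myb for the combination against GSK-LSD1 was 0.0017, Lmo2 -0.019 there and -0.043 for ruxolitinib against DMSO, Tal1 -0.01 for GSK-LSD1 against ruxolitinib, and the departures from additivity were -0.00026 (Runx1), 0.024 (Lmo2) and 0.0093 (Tal1). TMM scaling gave Lmo2 a departure of 0.0026. Quantile scaling gave Runx1 0.0041 and Tal1 0.007 for GSK-LSD1 against DMSO and Runx1 0.011 for the combination against ruxolitinib. Without both libraries that stood apart, the last was 0.053, and Myb for the combination against GSK-LSD1 was 0.013. With a library left out, Myb for the combination against GSK-LSD1 ran from -0.045 to 0.013 and Lmo2 from -0.011 to 0.064, Runx1 for the combination against ruxolitinib from -0.043 to 0.022, Lmo2 for ruxolitinib against DMSO from -0.042 to 0.10, Tal1 for GSK-LSD1 against ruxolitinib from -0.0029 to 0.03, and departures from -0.025 to 0.041 (Runx1, and 0.072 without both libraries that stood apart), -0.00089 to 0.21 (Cd34) and -0.085 to 0.06 (Lmo2).

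Deviations of 18 same-numbered pairs of libraries correlated at -0.148 to 0.15, and those of differently numbered pairs at -0.226 to 0.276. With 3 libraries per treatment, these values cannot decide whether replicate numbers pair the libraries. A replicate block left the counts at 4 for the combination and 4 for GSK-LSD1 against DMSO, with Cd34 at 2.33 and 1.96, and changed no call of the members. Over all 11484 genes, 4666 and 3485 passed with the block. Kit could not be tested at a mean of at least 50. The planned count tests of edgeR and DESeq2 were not run, because the deposited table holds scaled values with an added constant and was treated as a signal, although its steps were whole. Meis1, Hoxa9, Hoxa10 and Flt3 were too low for the filtered test. With no filter the count for the combination against DMSO was 5, Meis1 added, and 4637 of 17044 genes passed.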
